A study of Arabidopsis thaliana with 18 samples.

Results

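The response of gun1-9 seedlings to norflurazon was read from 6 of the 18 arrays of this study, 3 of gun1-9 seedlings grown with 5 µM norflurazon and 3 of gun1-9 seedlings grown without it, over all 22746 probe sets that are not array controls. Both groups carry the gun1-9 mutation, and the herbicide is the only labelled difference between them. The seedlings of Arabidopsis thaliana were 5 days old and had grown from seed on plates with 1% sucrose at 21 °C in continuous light of 100 µmol per square metre and second. The remaining arrays hold the wild type Col-0 and the mutant gun5, each with and without the herbicide and each with its own untreated controls, and are used here to ask whether a change differs between genotypes. The design text calls the 3 arrays of a group biological replicates. Total RNA was used, no organ is named, and the labels do not say what the gun1-9 allele changes. No probe set is assigned to GUN1 alone, and the level of the mutated gene was not analysed here.

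Norflurazon blocks an early step of carotenoid synthesis. Without carotenoids to quench it, light absorbed by chlorophyll damages the plastid, and the seedling bleaches. Plastids keep a small genome for core photosystem proteins, part of their ribosome and their own RNA polymerase, but most plastid proteins are encoded in the nucleus, and a wild-type seedling with damaged plastids turns many of those nuclear genes down. GUN1, a pentatricopeptide repeat protein of the plastid, is needed for that signal, and the mutants were named genomes uncoupled because their nuclear photosynthesis genes stay more active.

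Values are probe-set intensities, and changes are differences of log2(intensity + 1) with the standard error (SE) of a limma fit over all arrays. A probe set was called at an adjusted p under 0.05 (Benjamini-Hochberg over all 22746). Median intensity lay between 14.7 and 15.7 in the gun1-9 arrays, and Pearson's r between replicate arrays of a group was at least 0.992. The lower quartile of the arrays, 3.79 on the intensity scale, is called the dim level, and changes that start near it are understated by the added constant. The RNA is that of many cells together, so fewer cells of a type and less RNA per cell cannot be told apart. PYK10, a root beta-glucosidase, and RCA, the leaf chaperone rubisco activase, were both bright on all 6 arrays, between 4791 and 6659 for the first and at 7350.4, 7313 and 7459 untreated and 6275, 6564 and 6661 treated for the second. Intensity ratios between the 3' and 5' control probe sets lay between 1.01 and 1.26 for GAPDH and between 2.07 and 2.78 for actin on these 6 arrays, with overlap between treated and untreated. The array also carries a control for 25S ribosomal RNA, whose groups did not overlap. It stood at 46.7, 24.7 and 40.1 in the untreated and 3143, 927 and 2370 in the treated gun1-9 arrays, against at most 96.9 on any other array of the study. Its part in the results below was not tested.

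Norflurazon changed a large share of the transcripts measured in gun1-9. In all, 4669 probe sets rose (20.5% of those tested) and 3578 fell (15.7%), together 36.3%, of which 961 (4.22%) rose and 1187 (5.22%) fell at least 2-fold. The median log2 change over all probe sets was 0.02. Treated and untreated arrays did not overlap for 5810 probe sets that were higher (25.5%) and 4678 that were lower (20.6%), of which 4481 (19.7%) and 3457 (15.2%) were also called. For 706 probe sets that rose (3.1% of those tested) the response was also called more positive than in Col-0, and for 159 (0.699%) more negative. For 838 that fell (3.68%) it was called more negative than in Col-0, and for 627 (2.76%) more positive. These differences use the same gun1-9 arrays as the response itself. By location of the gene, 2488 of 13421 nuclear probe sets rose and 1820 fell, no plastid-genome probe set of 69 rose and 67 fell, and of 11 mitochondrial-genome genes 1 rose and none fell.

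Transcripts of the plastid genome collapsed in every functional class. The median log2 change of the 69 measured genes was -3.95, against 0.02 over all probe sets, and 59 of them fell at least 8-fold. The median intensity of the 69 genes was 1477, 1361 and 1232 on the untreated gun1-9 arrays and 62.5, 31.5 and 32.3 on the treated ones. The first treated array carried the highest level of the 3 treated arrays for 53 of the 69 genes. Replicate 1 had both the highest plastid-genome median and the highest 25S signal of its group in each of the 6 groups, the untreated ones included. Under the same treatment the medians were 784, 533 and 603 in Col-0 and between 1030 and 1320 in gun5. In Col-0 47 of the 69 genes fell and none rose, where 15.1% of all probe sets fell and 24.2% rose. In gun5 11 fell and 3 rose, where 13.2% of all probe sets fell and 15.7% rose.

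**Figure D1:**
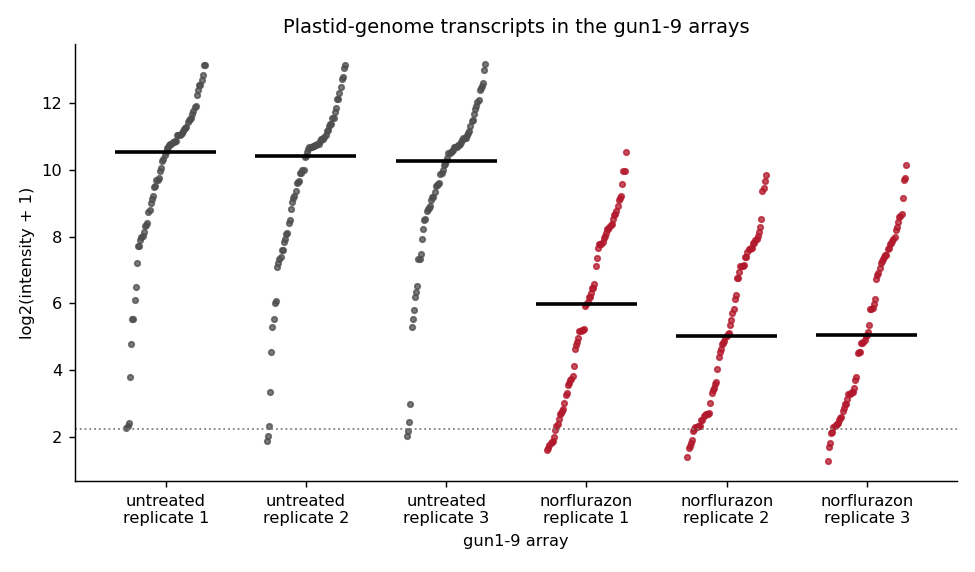
Level of each of the 69 plastid-genome genes, as log2(intensity + 1), on the 6 gun1-9 arrays; each point is a gene, genes are sorted by level within an array, bars are medians and the dotted line is the dim level. The medians of 1477, 1361 and 1232 on untreated arrays dropped to 62.5, 31.5 and 32.3 on treated arrays.

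All 37 measured plastid genes for the photosystems, the cytochrome b6f complex, ATP synthase, their assembly and the large subunit of rubisco fell, with a median log2 change of -4.37. The gene psbC, for the inner antenna protein of photosystem II, stood at 2882, 2260.3 and 1985 in untreated and at 9.04, 3.92 and 5.86 in treated gun1-9 seedlings, a log2 change of -8.40 ± 0.24 SE (adjusted p = 1.13e-13, limma). The gene psaA, for a reaction centre protein of photosystem I, went from 1829.5, 1652 and 1022 to 5.90, 4.78 and 4.03. Every treated array of both genes was far below every untreated one. The next largest changes of this class were those of psbA (D1 of photosystem II, -6.87), petL (cytochrome b6f, -6.17), psbB (photosystem II antenna, -6.02) and psbT (a small photosystem II subunit, -5.72). For psbC the log2 change was -3.56 in Col-0 and -0.93 in gun5, for psaA -4.13 and -1.58, and for psbA -3.17 and -0.81. The gene rbcL, for the large subunit of rubisco, went from 316, 241 and 457 to 13.2, 9.10 and 8.79 (-4.87 ± 0.20 SE), whereas it changed by -0.36 in Col-0 and 0.04 in gun5, neither with a call. Among the brightest genes, petB of the cytochrome b6f complex had 5887, 5686 and 5817 untreated and 1480.2, 913 and 1125 treated, a log2 change of -2.33.

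Of the 10 measured subunits of the NADH dehydrogenase-like (NDH) complex, which returns electrons to the thylakoid plastoquinone pool, 9 fell, with a median of -4.86. The level of ndhE was 421, 449.6 and 477 untreated and 6.23, 4.69 and 4.39 treated (log2 change -6.22 ± 0.19 SE), and ndhJ and ndhA followed with -6.09 and -5.93. The exception, ndhF, had 3.85, 2.68 and 3.10 on the untreated arrays, around or below the dim level, and was not called. In gun5, ndhE changed by 0.03 and ndhA by -0.27.

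Genes of plastid gene expression fell as well. The plastid-encoded polymerase has its catalytic subunits encoded by rpoB, rpoC1 and rpoC2 and its alpha subunit by rpoA. The gene rpoC2 went from 560.3, 527 and 583 to 16.5, 9.74 and 9.16 (log2 change -5.49 ± 0.20 SE), rpoC1 from 831, 781 and 753 to 35.7, 23.7 and 31.3 (-4.68), and rpoA from 2385, 1928 and 2526 to 228, 184 and 221 (-3.42). The groups of these 3 genes were widely separated. For rpoC2, rpoC1 and rpoA the log2 change was -0.60, -0.19 and 0.13 in the wild type and 0.19, 0.26 and 0.21 in gun5, and only the first of these, that of rpoC2 in the wild type, was called. The change of rpoB, -0.74, started from the low level of 13.1, 9.32 and 7.02, its groups overlapped, and its call was lost without untreated replicate 1, without treated replicate 1 and without treated replicate 3.

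Of 15 plastid-encoded ribosomal protein genes, 14 fell, with a median log2 change of -3.57 in gun1-9 against -0.14 in Col-0 and 0.09 in gun5. The large-subunit gene rpl20 had 254, 192 and 435 untreated and 10.8, 5.22 and 4.93 treated (-5.20 ± 0.30 SE). The change was -4.69 for the small-subunit gene rps16 and -2.95 for rps3. All 3 had non-overlapping groups. Only rps14 was not called, with 4.01, 3.12 and 3.59 untreated. The remaining plastid genes were clpP, for a subunit of the plastid protease (-2.10), accD, for a subunit of acetyl-CoA carboxylase in fatty acid synthesis (-3.35), and matK, for a splicing factor (-3.20). In gun5 they changed by 0.38, 0.18 and -0.23.

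The response of plastid transcripts in gun1-9 was called more negative than in Col-0 for 63 of the 69 genes (7.21% of all probe sets). It was called more negative than in gun5 for 65 (3.06% of all probe sets). Among the 60 genes with at least 100 intensity units in untreated gun1-9, the log2 changes ran from -8.40 to -2.10. The 4 smallest changes, those of rpoB, petD, ndhF and rps14, all came from genes below that level. In treated gun1-9, 7 of the 69 genes had means under the dim level, where the size of the fall depends on the added constant.

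**Figure D2:**
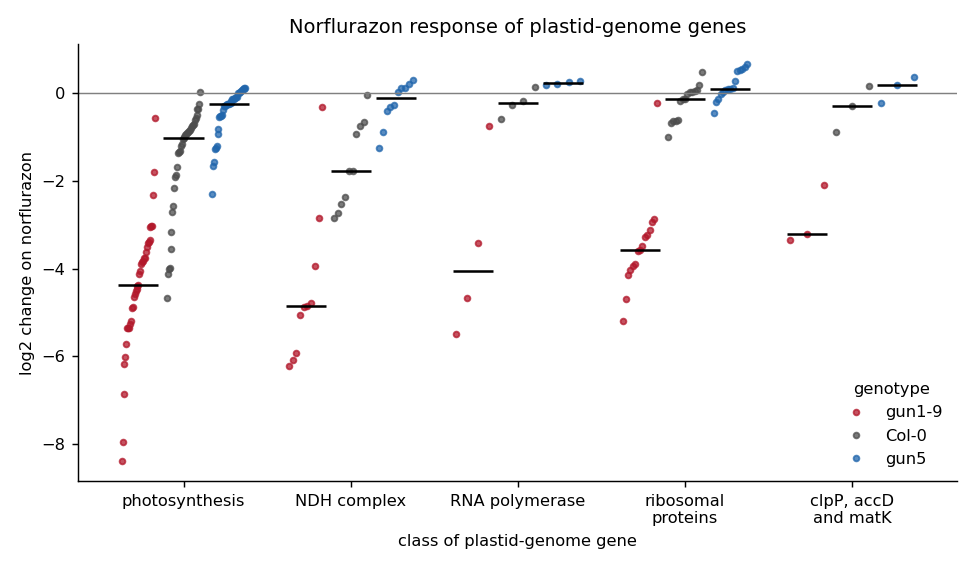
Log2 change on norflurazon of the 69 plastid-genome genes by class, in gun1-9, Col-0 and gun5; each point is a gene, genes are sorted within a class and bars are medians. The medians in gun1-9 were -4.37 for photosynthesis, -4.86 for the NDH complex and -3.57 for ribosomal proteins, and in gun5 -0.24, -0.12 and 0.09.

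Transcripts of the mitochondrial genome, the other organelle genome of the plant cell, showed no such collapse. Among its 11 measured genes 1 rose and none fell (20.5% and 15.7% of all probe sets), and the median log2 change was 0.09. In 6 settings 1 of them was called lower, those without untreated replicate 2, treated replicate 2, Col-0 untreated replicate 1 or gun5 untreated replicate 1, with centred arrays and with another prior. Without Col-0 treated replicate 2, 2 rose. The gene cox1, for the first subunit of cytochrome c oxidase, rose from 56.5, 46.6 and 66.3 to 163, 129.8 and 136 (1.33 ± 0.21 SE, adjusted p = 8.2e-05), without overlap. It changed by 1.28 in Col-0 and 0.95 in gun5. The complex I gene nad4 had 175, 134 and 333 and 271, 174 and 218, with wide overlap. Only 8 of the 11 were above the dim level in either group.

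Nuclear genes for the photosynthetic apparatus fell in gun1-9 by modest amounts. Of 12 measured genes for photosystems and electron transport (48 listed), 10 fell (15.7% of all probe sets did), with a median of -0.66 against -2.64 in Col-0. In gun5 10 fell as well, with a median of -0.65. The difference from Col-0 was called more positive for 10 of the 12 (8.07% of all probe sets). That from gun5 was called more positive for none and more negative for 2 (3.06% of all probe sets). The largest falls were those of nuclear NDH subunits, whose plastid-encoded partners are described above. The gene NdhN (AT5G58260) went from 609.8, 691 and 532 to 226, 250.0 and 206 (-1.42 ± 0.12 SE), and NdhL (AT1G70760) from 630.4, 747 and 749 to 254, 297 and 253 (-1.40). Neither overlapped. NdhN changed by -4.28 in Col-0 and by -0.78 in gun5, NdhL by -3.73 and -0.38, and the falls in gun1-9 were called smaller than in Col-0 and larger than in gun5 for both genes, the 2 of the list that differed from gun5. CRR42, a protein needed to build the NDH complex and chosen here after its values were seen, went from 248, 242 and 185 to 37.8, 28.6 and 32.5 (-2.73). The difference of response from gun5 was -1.75 (adjusted p = 6.4e-06).

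Other members of that list were closer to their untreated level. PSBY of photosystem II went from 4094, 4556 and 4643 to 2060.0, 2351 and 2267 (-0.99), PSAN of photosystem I changed by -0.81, PSAE-1 by -0.60 and ATPC1, the gamma subunit of ATP synthase, by -0.69. PSBW changed by -0.33 and lost its call in 3 settings. Among the antenna genes (3 measured of 20 listed), LHCB4.3 fell from 500.4, 520.3 and 454 to 164, 180.5 and 148 (-1.58) and LHCB4.2 changed by -0.83, with a call. LHCB4.1 was at 5786, 6179 and 5397 and 5143, 5356 and 4996 and was not called. In treated Col-0 LHCB4.1 was at 962, 1251 and 1338. All 3 antenna genes fell in gun5, with a median of -1.52 against -0.83 in gun1-9. The response was called more positive in gun1-9 than in gun5 for LHCB4.1 and LHCB4.2, with differences of 0.68 and 0.70.

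Of the lists for carbon metabolism, the Calvin cycle had 3 of 4 measured genes lower and photorespiration 2 of 4 (13 listed), where 15.7% of all probe sets fell. In the Calvin cycle (22 listed), SBPASE, sedoheptulose bisphosphatase, went from 3839, 4213 and 4334 to 1681, 1687 and 1496 (-1.35 ± 0.10 SE) and PRK, phosphoribulokinase, changed by -0.96. RCA was not called, although its treated arrays all lay below the untreated ones. With centred arrays, with 16 in place of 1 added before the log and with another prior, all 4 genes were called lower. In photorespiration HPR, hydroxypyruvate reductase of the peroxisome, had 4334, 4337 and 4131 and 4270.3, 3925 and 3785, with overlapping groups and no call. In Col-0 HPR changed by -2.31. On the list of oxidant scavengers, the thylakoid ascorbate peroxidase gene TAPX fell from 423, 439 and 385 to 143, 122 and 130.4 (-1.65), while it changed by -4.43 in Col-0.

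Of 5 measured genes for starch, sucrose and sugar transport (32 listed), 4 fell, where 15.7% of all probe sets did, and the median was -0.93. DPE1, the disproportionating enzyme that handles maltotriose from starch in the chloroplast, went from 167, 153 and 162 to 57.9, 47 and 72.6 (-1.45 ± 0.14 SE, adjusted p = 5.54e-07). It changed by -1.16 in Col-0 and -0.07 in gun5, and the difference of response from gun5 was -1.38 (adjusted p = 0.000397). The starch branching enzyme gene SBE2.2 fell from 269, 226 and 280.1 to 137, 139 and 129 (-0.93). ATSPS4F, a sucrose phosphate synthase, changed by -1.14 in gun1-9 and -5.01 in Col-0.

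In tetrapyrrole synthesis, the route to chlorophyll and haem, 7 of 10 measured genes fell and 1 rose (33 listed). Over all probe sets 15.7% fell and 20.5% rose. PORB, a light-dependent protochlorophyllide oxidoreductase, had the largest fall, from 918, 814 and 821 to 87.5, 74.9 and 97.5 (-3.29). The lowest change on the list was -4.76 in Col-0 and -3.85 in gun5. CHLI2, a magnesium chelatase subunit, changed by -1.01 and GSA1, which makes aminolevulinic acid, by -0.71. For both, the fall was called larger than in gun5, where the changes were -0.27 and -0.10. HEMA2, a glutamyl-tRNA reductase gene, rose by 0.66, a call lost without untreated replicate 2 and without treated replicate 3. Of the 2 measured carotenoid genes, Z-ISO, the isomerase that acts after the step norflurazon blocks, changed by -0.27 with a call, and LYC, lycopene cyclase, by 0.06 without one.

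All 7 measured nuclear genes on the list of plastid ribosomal proteins fell (36 listed), where 15.7% of all probe sets did. Their median was -0.51 against -1.29 in Col-0 and -0.01 in gun5. The levels of AT3G54210 were 2620.0, 2614 and 2529 untreated and 1689, 1523 and 1679 treated (-0.67 ± 0.09 SE). AT2G43030 went from 3047, 2821 and 2945 to 1965, 2014 and 1793 (-0.61 ± 0.08 SE). Both had non-overlapping groups, as had 6 of the 7. In gun5 none of the 7 was called. For 5 of the 7 the response in gun1-9 was called more negative than in gun5 (3.06% of all probe sets were more negative). For 5 it was called more positive than in Col-0 (8.07% of all probe sets were more positive). The call for AT1G29070 was lost without untreated replicate 1 or 2 and without treated replicate 2 or 3, and that for AT1G64510 without any 1 of the gun1-9 arrays other than treated replicate 2. Quantile normalization ended both.

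Heat shock genes rose in gun1-9, in contrast to the genes above. These chaperones bind unfolded proteins and are commonly induced when proteins are damaged. All 7 measured genes (26 listed) rose, where 20.5% of all probe sets did, and their median log2 change was 1.97, against 0.07 in Col-0 and -0.09 in gun5. In gun5 3 of the 7 rose and 1 fell, where 15.7% and 13.2% of all probe sets did. In Col-0 1 rose and 1 fell, where 24.2% and 15.1% of all probe sets did. Hsp70-2 (AT5G02490), a chaperone that works with ATP, stood at 96.2, 78.7 and 115 in untreated and 297, 464 and 388 in treated gun1-9 seedlings (1.97 ± 0.16 SE, adjusted p = 3.92e-08). In Col-0 it had 40.9, 41.6 and 37.5 untreated and 43.4, 41.3 and 41.2 treated, and in gun5 39.6, 49.7 and 47.2 and 28.5, 22.7 and 29.9. The untreated gun1-9 arrays were thus already above every Col-0 and gun5 array for this gene, and the treated ones were higher still. The difference of response was 1.9 ± 0.22 SE from Col-0 (adjusted p = 8.34e-06) and 2.70 ± 0.22 SE from gun5 (adjusted p = 3.96e-07).

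AT2G29500, on the same list, had 12, 14.4 and 12 untreated and 52.1, 79 and 46.9 treated (2.1 ± 0.23 SE), but fell in Col-0 (-0.68). Fes1A, a factor that exchanges the nucleotide of Hsp70 proteins, rose from 44.8, 41.6 and 38 to 195, 184 and 151 (2.06), and it also rose in Col-0 (1.11) and gun5 (1.31). AT5G48570 went from 27.1, 18 and 38 to 147, 171 and 143 (2.49) and changed by 2.00 in gun5. The groups of these 3 genes did not overlap in gun1-9. AT5G37670 changed by 1.72 and AT1G53540 by 0.97, the latter from 2.46, 2.56 and 3.69, below the dim level. ATHSP22.0, a small heat shock protein gene, stayed below or near the dim level throughout, its groups overlapped, and its rise of 0.31 lost its call in 14 settings. The response was called more positive than in Col-0 for 6 of the 7 genes (8.07% of all probe sets) and more positive than in gun5 for 3 (2.39%).

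Further genes of protein folding were looked at after their values were seen. Hop3, a co-chaperone that joins Hsp70 and Hsp90, had 8.90, 8.52 and 10.2 untreated and 34.8, 49.9 and 32.8 treated (1.95 ± 0.15 SE). HSA32, a heat stress protein known for prolonging acquired thermotolerance, went from 7.58, 7.51 and 9.92 to 44.1, 27.4 and 20.4 (1.70), and Fes1C from 15.4, 15.6 and 23.4 to 80.2, 87.5 and 69 (2.08). The groups were apart in each case, and the differences from Col-0 were 1.85, 1.60 and 0.82, all called. Fes1B, of the same small family, fell (-1.20). TIL, a lipocalin induced by heat and cold, rose from 508, 541 and 667 to 2391, 2882 and 2389.5 (2.16 ± 0.10 SE), further than in Col-0 (0.96) and gun5 (1.10). On the list for stress of the endoplasmic reticulum, 1 of 4 genes rose, where 20.5% of all probe sets did. It was the transcription factor BZIP60 (0.96), which changed by 1.20 in Col-0. Without treated replicate 1 the number that rose was 2. In the plastid, Cpn60beta2, a chaperonin subunit, rose by 0.39 and CLPP4, a protease subunit, changed by -0.35.

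**Figure D3:**
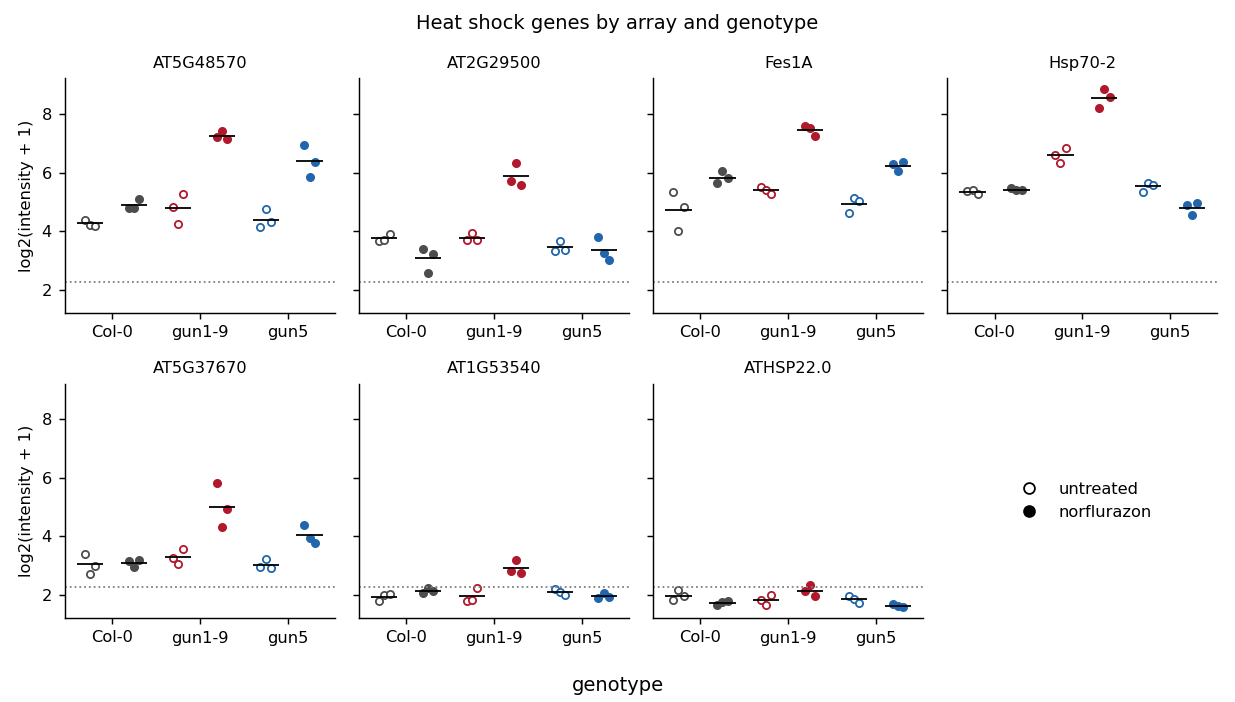
Level of the 7 measured heat shock genes, as log2(intensity + 1), on every array of Col-0, gun1-9 and gun5; open points are untreated and filled points norflurazon-treated arrays, bars are means of 3 arrays and the dotted line is the dim level. Hsp70-2 rose by 1.97 in gun1-9, and its changes in Col-0 and gun5 were 0.07 and -0.73.

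Of 11 measured genes on a list of responses to disturbed mitochondria (32 listed), 9 rose and none fell, where 20.5% of all probe sets rose, and the median was 0.66. In Col-0 7 of the 11 rose and 1 fell, with a median of 0.58, and in gun5 6 rose and 1 fell, with a median of 0.45. The largest rises were those of a few members. AT2G04050 had the largest rise of any named nuclear gene, from 3.97, 3.50 and 3.74 to 512, 370.5 and 485 (6.58 ± 0.20 SE), and AT2G21640 went from 14.4, 9.73 and 14.2 to 641, 479.8 and 563 (5.36). AT2G41730 rose from 14.2, 14.2 and 19.8 to 548, 386 and 492 and AT5G51440 from 13.4, 7.29 and 9.78 to 292, 306 and 295, by 4.81 and 4.78 on the log2 scale. The levels of all 4 were separated by more than 10-fold between treatments on every array. All 4 also rose in Col-0, by 4.72, 6.08, 2.82 and 3.57 in that order. AT5G09570 rose from 6.87, 5.58 and 4.27 to 29.2, 16.4 and 35.3 (2.04), with 0.24 in Col-0 and 0.35 in gun5, and both differences of response were called. AT2G04070 rose by 0.39 from below the dim level, and its call was lost without treated replicate 3. The call of GSTU25, which is also a tau glutathione transferase, was lost without untreated replicate 1 and without treated replicate 1. NDB2, an alternative NADH dehydrogenase of the inner membrane, had 118, 146 and 104 and 109, 131 and 133 and was not called. NDB4, of the same family, rose by 0.63 from below the dim level.

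Some enzymes of lipid and amino acid breakdown were measured. ICL (AT3G21720), the isocitrate lyase that lets a seedling turn fatty acids into sugar, went from 25.1, 4.16 and 22.8 to 277, 452 and 266 (4.45 ± 0.63 SE, adjusted p = 2.55e-05). Its untreated arrays spread widely, but all lay below the treated ones. SDP1, a lipase of oil bodies, rose by 0.80, a call lost in 3 settings. The mitochondrial enzymes of leucine breakdown MCCA, a subunit of methylcrotonyl-CoA carboxylase, and IVD, isovaleryl-CoA dehydrogenase, were looked at after their values were seen. MCCA rose from 60.6, 41.3 and 96.2 to 310.3, 347 and 324 (2.37) and IVD from 36.8, 38 and 53.9 to 171, 148 and 159 (1.89), where MCCA changed by 2.54 in Col-0 and 2.98 in gun5 and IVD by 1.42 and 1.88. GAT1_2.1, a glutamine amidotransferase, rose from 3.72, 4.47 and 3.64 to 76.9, 74.4 and 85.1 (4.01) on the brighter of its 2 probe sets. That probe set changed by 3.84 in Col-0 and 3.67 in gun5. The other, at or below the dim level, changed by 0.10 in gun1-9 without a call.

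The ATG8 proteins coat the membranes of autophagosomes, which carry cell contents to the vacuole for breakdown. Of 11 measured autophagy genes, 6 rose and none fell, where 20.5% and 15.7% of all probe sets did, and the median was 0.31. ATG8B had 61.7, 68.3 and 58.9 untreated and 149.6, 154 and 155 treated (1.27 ± 0.14 SE). ATG8G changed from 11.5, 14.9 and 14.1 to 28.5, 24.1 and 24.5 (0.89) and ATG8E from 181, 223 and 247 to 453, 338 and 358 (0.81). None of the 3 overlapped, and the test of the difference from Col-0, where 4 of the 11 rose, called none. Without untreated replicate 2 the number that rose was 3. On the list of seed storage and LEA genes (9 measured of 39), 3 rose and 2 fell, where 20.5% and 15.7% of all probe sets did. The highest change on the list was 4.45 in gun1-9 (ICL), 3.52 in Col-0 and 4.87 in gun5. One of the falls was that of AT3G02480, from 498, 165 and 424 to 5.72, 68.6 and 7.47 (-4.37 ± 0.89 SE), with treated replicate 2 far above the other treated arrays, and the other, LEA4-5 (-0.95), lost its call in 14 settings.

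Glycosyltransferases of the UGT family attach sugars to hormones, flavonoids and foreign compounds. Of 51 measured members 17 rose (33.3%, against 20.5% of all probe sets) and 5 fell, and the median was 0.09. UGT73C1 (AT2G36750) went from 8.26, 5.99 and 7.82 to 352, 284 and 289.7 (5.22 ± 0.13 SE, adjusted p = 4.2e-14) and UGT84A3 (AT4G15490) from 7.51, 7.36 and 6.55 to 112, 112 and 133 (3.88). The treated arrays of both were more than 10-fold above the untreated ones. UGT87A2 rose from 84.8, 80.3 and 84.8 to 343, 297 and 290.2 (1.88) and UGT73B1 from 48.8, 59.9 and 46.4 to 263, 212 and 206 (2.11), while Col-0 had -0.08 and 0.12. UGT76C2, which inactivates cytokinins, rose by 0.97 and had -1.34 in Col-0. In gun5 13 of the 51 rose and 8 fell, where 15.7% and 13.2% of all probe sets did. In Col-0 10 rose and 12 fell, where 24.2% and 15.1% of all probe sets did. In all, 10 of the 51 had a more positive response in gun1-9 than in Col-0 (8.07% of all probe sets) and 1 a more negative one. Against gun5, 7 were more positive (2.39% of all probe sets) and none more negative (3.06%).

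**Figure D4:**
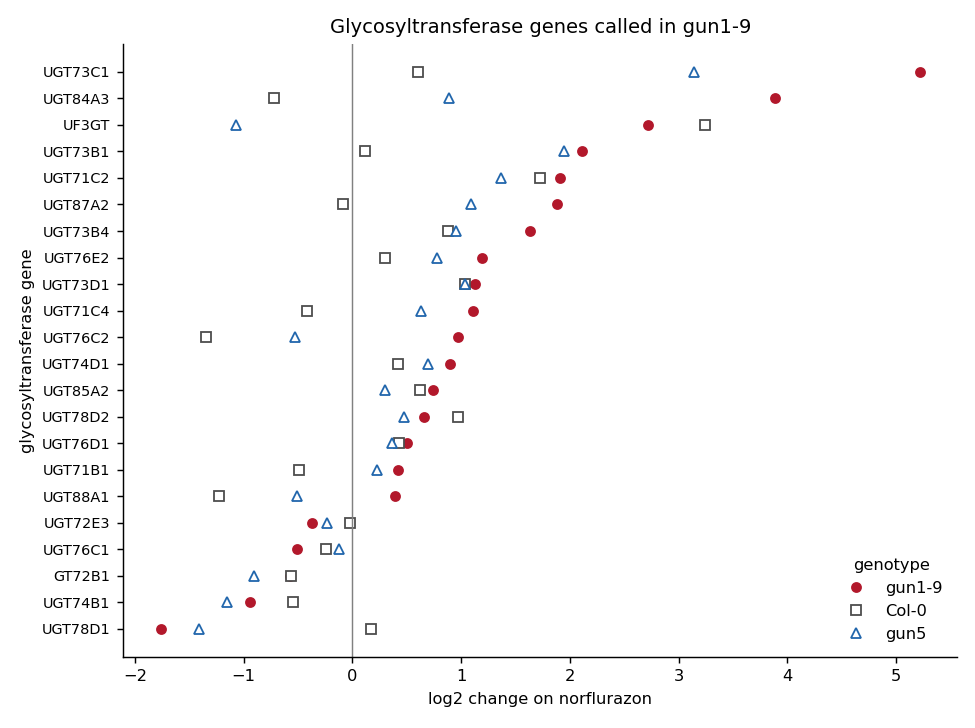
Log2 change on norflurazon of the 22 glycosyltransferase genes called in gun1-9, sorted by that change, with the change of the same gene in Col-0 and gun5. The change of UGT73C1 was 5.22 in the gun1-9 seedlings, against 0.60 for the wild type and 3.14 for gun5.

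Some glycosyltransferases act in the flavonoid pathway. UF3GT, which adds xylose to anthocyanins, rose from 12.8, 10.4 and 8.68 to 58.9, 108 and 64.6 (2.71), and DFR, dihydroflavonol reductase, from 40.7, 12.6 and 38.5 to 108, 182 and 106 (2.19). UGT78D2, which glucosylates flavonols and anthocyanidins, changed by 0.66. UGT78D1, which adds rhamnose to flavonols, fell from 431, 313 and 342 to 139, 87.6 and 95.9 (-1.76 ± 0.22 SE) and had 0.17 in Col-0, and the difference of response was -1.93 (adjusted p = 0.000276). In all, 4 of the 8 measured flavonoid genes (33 listed) rose and 1 fell, where 20.5% and 15.7% of all probe sets did. In Col-0 6 of the 8 rose and none fell, with a median of 0.92 against 0.435 in gun1-9. In gun5 2 rose and 4 fell, with a median of -0.51. Over all probe sets 24.2% rose in Col-0, and 15.7% rose and 13.2% fell in gun5. The response was called more positive than in Col-0 for none of the 8 and more negative for 2. The rise of CHIL in gun1-9 lost its call without untreated replicate 3 and without treated replicate 1.

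Further genes belong to families and lists of detoxification and oxidant defence. GSTU20, a tau glutathione transferase, had the largest fall of any named nuclear gene, from 1175, 962 and 1515 to 11.6, 17.3 and 15.4 (-6.26 ± 0.33 SE). Of the 11 measured tau genes 3 fell and 2 rose, where 15.7% and 20.5% of all probe sets did. One that rose was GSTU16 (0.85), which changed by -1.17 in Col-0. Without untreated replicate 1 or without treated replicate 1 the number that rose was 1. CCS, the copper chaperone of superoxide dismutase, rose from 90.7, 78.4 and 81.8 to 699.5, 629 and 647 (2.96 ± 0.15 SE). The highest change on its list was 2.05 in Col-0 and 3.19 in gun5. GR1, a glutathione reductase, changed by 0.53. On the list of reactive oxygen scavenging 3 of 8 measured genes rose and 3 fell (33 listed), where 20.5% and 15.7% of all probe sets did. The rise of SAPX, the stromal ascorbate peroxidase, was lost without untreated replicate 3. AER, an alkenal reductase that removes products of lipid peroxidation, was chosen after its values were seen. It went from 188, 212 and 229 to 635, 679 and 557 (1.57) and changed by -0.59 in Col-0 and 0.28 in gun5. Among 22 cytochrome P450 genes 5 rose and 5 fell, shares near those of all probe sets (20.5% and 15.7%), and CYP71B5 had the largest rise (1.10). The number that rose was 3 without untreated replicate 2 or 3 or treated replicate 1 or 2. The number that fell was 1 without untreated replicate 3 or treated replicate 2 and 2 without treated replicate 1.

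The 3 measured genes on the list for cell division (23 listed) all fell without overlap, where 15.7% of all probe sets fell. Their median log2 change was -1.36. The mitotic kinase genes AUR1 and AUR2 went from 46.4, 58.5 and 42.4 to 17.3, 15.6 and 15.5 (-1.53 ± 0.17 SE) and from 34, 37.6 and 36.8 to 17.5, 14.6 and 9.51 (-1.36). PRL, a subunit of the MCM helicase of DNA replication, went from 74.8, 60.6 and 91.9 to 26, 32.2 and 29.9 (-1.32). The fall was called larger than in Col-0 for AUR1 and PRL, with differences of response of -0.72 and -1.02. In gun5 AUR1 and AUR2 fell and PRL changed by -0.36 without a call, the median was -1.03, and no difference from gun5 was called. After values were seen, TOPII, a DNA topoisomerase, was found at 44.7, 44.2 and 46.2 and 15.3, 16.6 and 16.8 (-1.42 ± 0.17 SE), with 0.12 in Col-0 and -0.21 in gun5, where both differences were called. HTB2, a histone H2B (-1.40), 3xHMG-box2, a protein of mitotic chromosomes (-1.57), and KINESIN-12B, a motor of the phragmoplast (-1.12), were lower too. They were likewise picked after their values were seen.

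Expansins loosen cell walls during growth, and of 19 measured genes 6 fell and 3 rose, against 15.7% and 20.5% of all probe sets, with the fall of EXLA3 (-0.33) lost in 16 settings. EXPB3 went from 387, 328 and 325 to 39.1, 82.3 and 57.7 (-2.58), EXLB1 changed by -2.68, EXPA8 by -1.09 and EXPA15 by -1.24. The genes that rose were EXPA9 (1.05) and the root hair expansins EXPA7 and EXPA18. EXPA7 went from 40.2, 66.4 and 41.1 to 104, 159.8 and 117 (1.36) and EXPA18 from 90.3, 153 and 109.7 to 185, 279 and 212 (0.94). Of the 19 expansins 5 fell and 3 rose in Col-0 (15.1% and 24.2% of all probe sets), and 8 fell and 1 rose in gun5 (13.2% and 15.7%). EXPA7 and EXPA18 are also the root and root hair markers that rose in gun1-9, out of 3 measured of 11 listed. The third, PYK10, had 5081, 4791 and 5041 and 6659, 5318 and 5525, without overlap but without a call. In Col-0 2 of the 3 markers rose and in gun5 none did, and no difference of response from either genotype was called. Of the leaf epidermis markers FMA, of guard cell differentiation, changed by -0.51 and SPCH, of stomatal lineage entry, by 0.11 without a call. Whether the balance of root and shoot RNA moved was not tested.

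Xyloglucan endotransglucosylases (XTH) recut wall xyloglucan. Among 10 measured genes 3 rose and 2 fell, near the shares of all probe sets. XTH26, a root hair gene, went from 7.64, 10.5 and 12.8 to 25.8, 54.2 and 37.9 (1.79), and XTH16 fell from 167, 157 and 175 to 52.2, 49.5 and 42.2 (-1.77 ± 0.12 SE). The groups of both were apart. Serine carboxypeptidase-like proteins are vacuolar or secreted hydrolases and acyltransferases, and of 29 measured genes 14 fell (48.3%, against 15.7% of all probe sets) and none rose, or 1 without untreated replicate 1. In gun5 12 of the 29 fell and in Col-0 7, where 13.2% and 15.1% of all probe sets did. The response was called more negative than in Col-0 for 5 of the 29 (7.21% of all probe sets) and than in gun5 for 2 (3.06%). The gene scpl46 went from 49.1, 59.3 and 59.1 to 11, 14.8 and 10.3 (-2.13 ± 0.14 SE), with -0.50 in Col-0 and -0.97 in gun5. The gene scpl35 fell from 264, 242 and 213 to 94.7, 124 and 137 (-1.02) and had 0.86 in Col-0 and -0.94 in gun5, and the difference from Col-0 was -1.88 (adjusted p = 5.15e-06). In the nitrate and peptide transporter family 5 of 12 fell and none rose, where 15.7% and 20.5% of all probe sets did. Without treated replicate 3 the number that fell was 3.

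**Figure D5:**
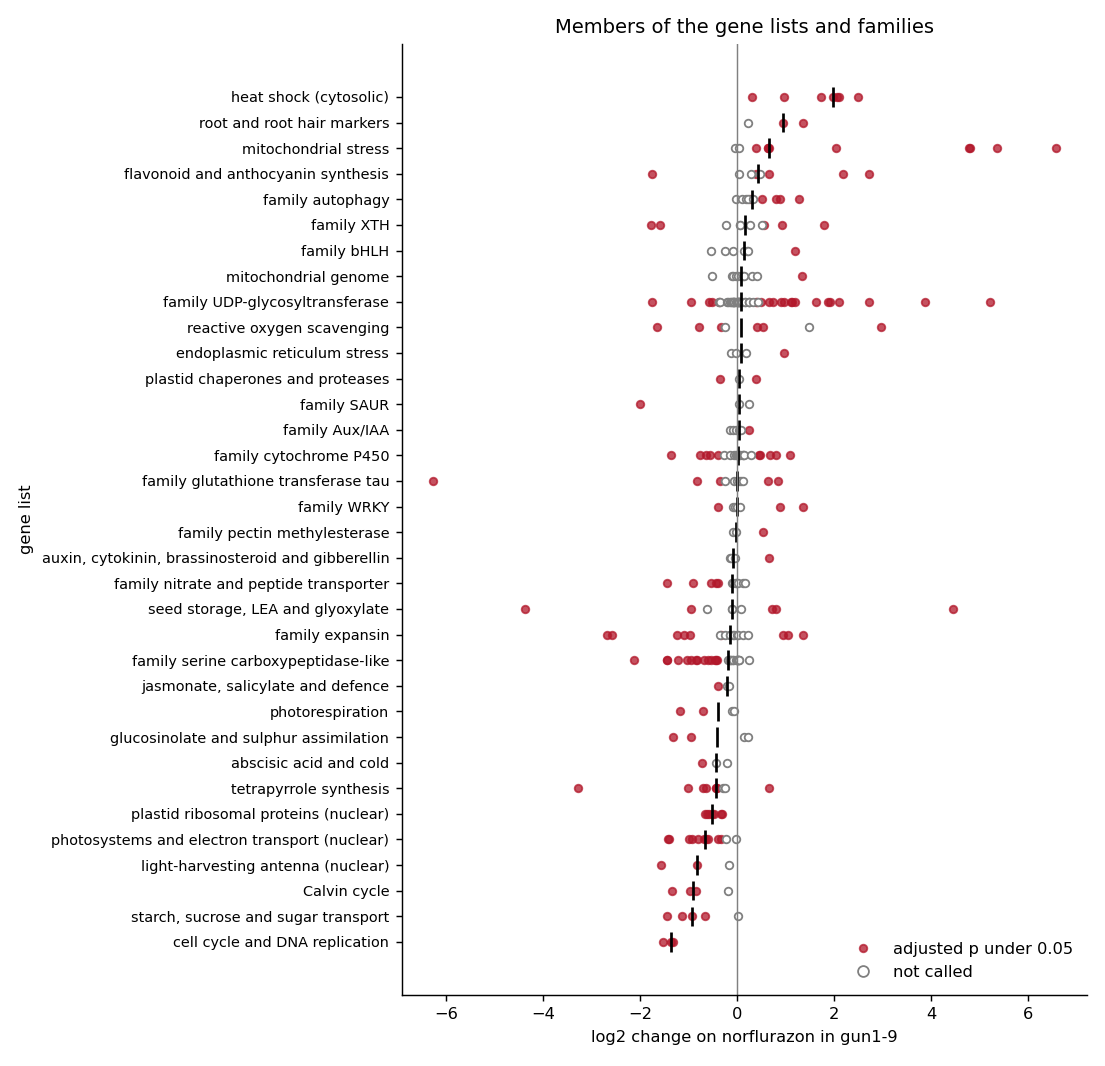
Log2 change on norflurazon in gun1-9 of each measured gene of the lists and families with at least 3 measured genes outside the plastid genome, sorted by list median (vertical bars); filled points have an adjusted p under 0.05. The heat shock list had a median of 1.97 and the cell cycle list one of -1.36.

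The remaining lists moved little or in part, where over all probe sets 20.5% rose and 15.7% fell. In glucosinolate synthesis and sulphur assimilation 2 of 4 measured genes fell, BCAT4, of methionine chain elongation (-1.32), and UGT74B1, which glucosylates thiohydroximates (-0.94). In the lists for cold and abscisic acid and for jasmonate and defence 1 of 3 fell in each, COR15A (-0.72), a chloroplast protein of cold acclimation, and PDF1.2b (-0.40), a defensin. Both calls were lost without treated replicate 1, among other settings, and without untreated replicate 3, where that of COR15A moved to -0.36. In the hormone list 1 of 4 rose, WES1, which conjugates auxin to amino acids (0.66). Among 7 WRKY transcription factor genes WRKY47 (1.37) and WRKY6 (0.88) rose, and the fall of WRKY20 (-0.40) was lost without any 1 of the gun1-9 arrays other than untreated replicate 2. Of 7 bHLH genes 1 rose, bHLH121, a regulator of the iron response (1.20). The number was 4 with 16 in place of 1 added before the log and 2 without untreated replicate 3, and without untreated replicate 1 another was called lower. Among lists with under 3 measured genes, HYH, a light signalling transcription factor, rose by 0.73, and GI, of the circadian clock, by 0.86. The response of GI was called more positive than in Col-0, with a difference of 1.18.

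The largest changes of nuclear genes were mostly those of genes without a name in the annotation. After AT2G04050, AT2G21640 and UGT73C1 came AT1G12010, from 7.88, 7.25 and 7.34 to 367, 273 and 254 (5.12), and AT1G17960, from 6.27, 7.37 and 9.09 to 225, 258 and 277 (4.90). Both also rose in Col-0 (4.73 and 5.65) and gun5 (5.12 and 4.26). AT1G09500 (4.29), AT2G29370 (4.18) and AT5G11410 (4.16) also rose in gun1-9. Their responses were more positive than in either other genotype by the tests of the differences. AT2G47550 (3.99) and AT5G43450 (3.65) complete the 15 largest rises together with the genes given above.

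Among the falls, AT3G16670 and AT1G23130 fell much further in gun1-9 than in either other genotype, by the tests of the differences. AT3G16670 had 1602, 1536 and 1215 untreated and 13.5, 28.5 and 29.3 treated (-5.94 ± 0.21 SE), and AT1G23130 899.6, 940.3 and 909.7 and 14.6, 17 and 11.9 (-5.90 ± 0.15 SE). In Col-0 they changed by -0.27 and -0.38, without a call, and in gun5 by -0.91 and -1.05. AT1G47400 went from 66.8, 111 and 163 to 6.98, 3.65 and 4.44 in gun1-9 (-4.20 ± 0.34 SE), changed by -1.53 in Col-0 and by 0.51 in gun5, and both differences of response were called. AT2G33850 fell from 184, 163 and 203 to 11.2, 10.8 and 8.17 (-4.07), further than in both other genotypes.

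The other large falls were those of AT1G66100 (-5.78), AT4G33550 (-4.94), AT3G58550 (-4.45), AT2G43550 (-4.43), AT5G37990 (-4.33), AT2G25510 (-4.24), AT4G19530 (-4.18), AT5G01015 (-4.12) and AT5G37690 (-4.11). All of them also fell in Col-0, with log2 changes from -6.83 for AT2G25510 to -2.89 for AT5G37990. Treated and untreated gun1-9 arrays did not overlap for any of them, as the rule for naming required.

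The size of the response itself differed between genotypes for many probe sets. Against Col-0 the difference was called for 3476 probe sets (15.3%), 1835 more positive in gun1-9 and 1641 more negative. Against gun5 it was called for 1241 (5.46%), 544 more positive and 697 more negative. The most positive differences from Col-0 included genes that fell in the wild type and not in the mutant. AT1G60590 was at 124, 123 and 109 in untreated and 207, 180.3 and 166 in treated gun1-9 and at 7.38, 5.98 and 4.23 in treated Col-0. AT3G28270 had 123, 116 and 117 and 143, 150.5 and 119.7 in gun1-9 and 2.18, 3.83 and 2.92 in treated Col-0. For AT4G28080 the changes were -0.30 in gun1-9 and -4.64 in Col-0. AT5G48490 fell in both, from 860.0, 879.7 and 1264 to 163, 148 and 135 in gun1-9 (-2.72), and by more in the wild type (-6.99). Against gun5, AT4G12490 rose in gun1-9 (1.97) and had -1.95 in gun5, and AT3G49160 had 2.12 and -1.77.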

How the data were processed

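The deposited values are intensities on a linear scale, 1 per probe set and array, with medians and quartiles nearly equal between arrays. Per the submitters' processing notes, GCRMA and MAS5 were involved. Which of these made the values, and how background and scale were set, is not given in the sources used here. Such steps press dim probe sets into a narrow band and assume that most transcripts do not change. Per the labels, biotin-labelled RNA was hybridised to Affymetrix arrays.

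The 64 array controls among 22810 probe sets entered no test. Of the 22746 others, GEO's platform annotation ties 13513 to 1 gene and 503 to several, and 8730 have no entry in the table used. Current symbols came from RefSeq (TAIR10.1), which held 13508 of the single genes. Probe sets tied to several genes stayed unnamed, and no coordinates or sequences are given. On log2(intensity + 1), limma 3.58.1 (lmFit and eBayes under R 4.3.3) estimated a mean per group from all 18 arrays without covariates, and its prior had 4.48 degrees of freedom. The tests are 2-sided, for the gun1-9 response and for its differences from the Col-0 and gun5 responses, each Benjamini-Hochberg adjusted over 22746. The fit was tested on simulated data. Figures were drawn with matplotlib 3.10.9.

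Gene lists, members and tests were chosen with earlier results of these data known. A gene with several probe sets is represented by the one with the highest mean, and lists with at least 3 measured genes are described by counts and medians. Named genes are list members, the 15 largest rises and 15 largest falls of nuclear genes, and the 10 largest falls of plastid-genome genes, each called and without overlap of the gun1-9 arrays, the 8 largest differences per direction, and 3 probe sets per direction without a single gene. Genes chosen after their values were seen are marked. The alternatives were other scalings, a larger added constant, no dim probe sets, only the arrays compared, another prior, the replicate number as a block, and leaving out each array. The number of arrays limits the precision, with a median SE of 0.13 for a response and 0.18 for a difference.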

Additional observations from a re-analysis of the deposited data

Results flagged for a closer look

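Responses that differed between genotypes by the test of the difference itself are given with their values, as differences of log2 change. Against Col-0, 3476 probe sets differed. The most positive differences with a gene name were those of AT1G60590 (5.29), AT3G28270 (5.06), AT2G29370 (4.77), UGT73C1 (4.61), UGT84A3 (4.61), AT1G09500 (4.54), AT4G28080 (4.34) and AT5G48490 (4.27). The most negative were AT3G16670 (-5.68), AT1G23130 (-5.52), rpoC2 (-4.89), psbC (-4.84), AT3G02480 (-4.81), petL (-4.80), rpl20 (-4.57) and rbcL (-4.52). For AT3G02480 the SE was 1.26, and its arrays spread widely.

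Against gun5, 1241 probe sets differed. The most positive differences with a gene name were those of DFR (4.69), AT4G12490 (3.92), AT3G49160 (3.89), UF3GT (3.78), AT2G29370 (3.57), AT5G11410 (3.50), AT5G48490 (3.40) and AT1G09500 (3.21). The most negative were all plastid-encoded, psbC (-7.46), psaA (-6.38), ndhE (-6.24), psbA (-6.05), rpl20 (-5.74), rpoC2 (-5.68), petL (-5.68) and ndhA (-5.66). Both sets of differences share the gun1-9 arrays.

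The array control for 25S ribosomal RNA entered no test. It had a mean of 2147 ± 1124 (SD, n = 3) in treated gun1-9 and 37.1 ± 11.3 (SD, n = 3) in untreated gun1-9. Its cause was not tested.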

How the results depend on the processing

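Under 26 other processing choices, the number of called probe sets stayed within 1.5 times for the response and for both differences. Leaving out 1 array at a time gave 7192 to 8409 calls for the gun1-9 response, 2963 to 3660 for the difference from Col-0 and 964 to 1275 for that from gun5. Centring each array on its median gave 51.2% of the response calls as rises, against 56.6%. Counting only calls whose arrays do not overlap, an alternative added after seeing the data, left 4481 rises and 3457 falls. Of 286 called values of the response given or listed, none changed sign and 37 lost the call in at least 1 setting. None of the 16 largest differences from Col-0 or the 16 largest from gun5 lost its call, and the other differences given were not recomputed. Of 78 list counts, 20 moved by over 1.5 times in at least 1 setting, none of them a count above 6. For numbers 1 to 3, deviations of arrays with the same replicate number had r across probe sets of 0.0622, 0.00512 and -0.0216 in gun1-9. The values were 0.0826, 0.1 and -0.0832 for Col-0 arrays and 0.0524, 0.105 and 0.067 for those of gun5. In gun5, unlike the other genotypes, each array correlated best with its own number, and replicate 1 had the highest plastid-genome median and 25S signal in all 6 groups. This is a hint from the data, not a pairing given by the labels. With a replicate block, 8383, 3587 and 1331 probe sets were called. The dim level limits what can be said of genes that start or end near it.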

Other observations

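Other genes with a name were looked at after their values were seen. The gibberellin receptor genes GID1A and GID1B rose, GID1A from 63.6, 63.6 and 54.4 to 151, 141 and 166 (1.33) and GID1B from 25.2, 34.4 and 18.9 to 107, 109 and 126 (2.11 ± 0.23 SE). The related peptide genes CLE41 and CLE44, of the signal that holds back xylem differentiation, fell, with log2 changes of -1.10 and -1.60. STOMAGEN, a mesophyll peptide that promotes stomata, went from 252, 255 and 394 to 94, 134 and 91.7 (-1.47), with -1.84 in Col-0 and 0.02 in gun5, and its difference from gun5 was called (-1.50, adjusted p = 0.00145). For these 5 genes the treated gun1-9 arrays stood apart from the untreated ones.

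FTSZ2-1 and FTSZ2-2, of the division ring, went from 344, 329 and 309.8 to 146, 154 and 128 (-1.19) and from 338, 293 and 335 to 75.7, 89.4 and 108 (-1.82), and both falls were called larger than in gun5 (-0.52 and -1.07). THIC, of thiamine synthesis, changed by -2.29, HCF101, an iron-sulphur carrier for photosystem I, by -1.15, and CaS, a calcium sensor of the thylakoid, by -1.80. SDH1-2, a succinate dehydrogenase subunit, rose from 4.98, 7.25 and 8.0 to 34.4, 29.3 and 28.4 (2.05), and LPR1, a multicopper oxidase of the root phosphate response, from 6.65, 7.61 and 6.89 to 66, 50.6 and 69.95 (2.96).

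Among probe sets for which no single gene is given, the largest rises were 263231_at, from 7.39, 8.01 and 10.03 to 841, 679 and 668 (6.27), 263403_at (5.78) and 250351_at (5.04). The largest falls were 252618_at, from 545, 498 and 456 to 4.79, 4.82 and 4.75 (-6.43), 267457_at (-5.66) and 260693_at (-5.60). In Col-0 263231_at changed by 1.22.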
